A study of Homo sapiens with 8 samples.

Results

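The genes described here are the mitochondrial ribosomal protein genes, taken as every entry of the expression table whose symbol is MRPL or MRPS followed by a number and at most one letter from A to C. The rule found 76 genes among 29991 entries. MCF10A, a non-tumorigenic human mammary epithelial cell line, was transfected with a control siRNA (siControl), with siRNAs that target LATS1 and LATS2, kinases of the Hippo pathway (siLATS), with siRNA against p53 (sip53), or with the siRNAs against LATS1, LATS2 and p53 together (siLATS_p53). Every group, siControl included, was transfected with siRNA, and the labels give no dose and no time after transfection. Each group had 2 polyA RNA-seq libraries, from 2 separate batches of cells, so 8 libraries were compared. All of the libraries came from 1 cell line.

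The mitochondrial ribosome translates the few membrane proteins that mitochondrial DNA encodes, which are core subunits of the respiratory chain and of ATP synthase. Its RNAs come from mitochondrial DNA, but its proteins are all encoded in the nucleus, made in the cytosol and imported, so an mRNA level says how much message was present and not how many ribosomes were assembled. The small subunit binds the mRNA and reads its codons with tRNAs, and the large subunit forms the peptide bond and holds the exit tunnel. Many of the proteins have bacterial counterparts, and others were gained in the mitochondrial lineage.

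By this division 26 of the 76 members belong to the small subunit and 49 to the large subunit, in which MRPS18A and MRPS30 are counted despite their symbols. MRPS36 was counted in neither, since it is now known as a component of a metabolic enzyme complex. Under the standard naming of ribosomal proteins 46 members are placed with a bacterial protein and 29 are not. MRPS18A and MRPS18B are among the 29 by their names, though both are relatives of the bacterial S18 protein. For 67 members at least 1 promoter sequence was found in RefSeq (build GRCh38.p14), 83 in all, each running from 250 bases before an annotated start to 50 bases after it. A gene was counted as holding a motif when any of its promoters held it.

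Short sequences in these promoters are shown because many members share them. The motif AAGATGGCG, which the factor YY1 is known to bind, was searched for on both strands and was held by 13 of the 67 members (19.4%), by 4.97% of the 8699 tested genes with a promoter, and by 2.14% of all 27305 genes with one. Counted by promoter it was in 15.7% of the 83 member promoters and in 1.75% of all 35116. It lay after the start in 10 of the 13 members and only before it in 3. The 8 of these 10 that were above the lowest value of the expression table are printed, with the motif beginning between base 9 and base 36 counted from 1 at the start. Each line gives 30 bases, read 5′ to 3′ on the gene's strand, with the motif in capitals.
MRPS18B, chr6:30617852-30617881, plus strand: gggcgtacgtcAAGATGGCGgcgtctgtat
MRPS10, chr6:42217834-42217863, minus strand: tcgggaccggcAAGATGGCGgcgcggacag
MRPS18A, chr6:43687764-43687793, minus strand: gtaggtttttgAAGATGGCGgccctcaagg
MRPS30, chr5:44808949-44808978, plus strand: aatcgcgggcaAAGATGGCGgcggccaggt
MRPL22, chr5:154941093-154941122, plus strand: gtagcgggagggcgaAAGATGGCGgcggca
MRPL42, chr12:93467511-93467540, plus strand: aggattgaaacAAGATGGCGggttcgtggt
MRPL50, chr9:101398577-101398606, minus strand: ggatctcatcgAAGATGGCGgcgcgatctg
MRPL46, chr15:88467362-88467391, minus strand: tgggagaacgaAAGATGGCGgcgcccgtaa

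The motif CCGGAAG, the core bound by ETS family factors such as GABP (also known as NRF-2), is the other sequence that stood out in share. It was held on either strand by 29 of 67 members (43.3%), by 22.9% of tested genes and by 12.2% of all genes with a promoter, and by promoter it was in 38.6% of the 83 member promoters and 10.3% of all. MRPS34 held it at 3 places, of which the one nearest the start is in capitals. The bases printed for MRPS34 also hold another of these places (cttccgg), left in lower case. MRPL51 held it also at base -119, as CTTCCGG, outside the bases printed. The 6 members printed are those with the motif that are called in the comparisons that follow, with the motif, or its reverse complement CTTCCGG, in capitals.
MRPS34, chr16:1773136-1773165, minus strand: ctcttccggtgaCTTCCGGccggaccgctg
MRPS23, chr17:57850041-57850070, minus strand: ctggagcagccgCTTCCGGttccggtagca
MRPL3, chr3:131502986-131503015, minus strand: ttgtaaaacgcaCCGGAAGtgggtccggcg
MRPL51, chr12:6493349-6493378, minus strand: ccggcaggcggaCCGGAAGcactgaggcgg
MRPS10, chr6:42217866-42217895, minus strand: gccgctgtaaccCCGGAAGcaatcctgaga
MRPS33, chr7:141014935-141014964, minus strand: tagagggcgggcCTTCCGGgacgagggcgc

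The other motifs were nearer to, or below, their share among tested genes. The motif GCATGCGC, which NRF1 is known to bind, was held by 8.96% of members and 6.58% of tested genes. The E-box CACGTG was held by 13.4% against 12.7%, the GC box GGGCGG by 61.2% against 78.1%, the CCAAT box CCAAT by 34.3% against 43.9%, and the TATA box TATAAA by 4.48% against 8.24%. These were matched letters on both strands of a fixed window, overlaps between different motifs were allowed, and no binding was measured.

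The library checks were as follows. LATS1, a kinase that restrains the co-activators YAP and TAZ, was at 9.54 to 9.94 on the deposited log2 scale in the libraries without its siRNA and at 7.90 to 8.10 in those with it, and LATS2 was at 9.74 to 10.22 and at 8.63 to 8.81. CDKN1A, a p53 target, was at 12.29 to 13.07 in the libraries without the p53 siRNA and at 9.82 to 10.16 in those with it, so the ranges did not overlap for any of these genes. All 10 basal breast epithelial markers were above the lowest deposited value in every library (9.89 to 17.38), while 5 of 7 fibroblast markers and 6 of 8 blood and endothelial markers were at the lowest value in all 8 libraries. The lowest deposited value was 5, a floor that equals 32 on the linear scale. Between 11756 and 12064 entries were above it in a library, and since no read counts were used the depth of each library is unknown.

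Of the 76 members 73 were above the floor in all 8 libraries and were tested, and the other 3, MRPL53, MRPS24 and MRPL38, were listed at the floor in all 8. In the GENCODE v29 annotation each of these 3 shares exon bases with another coding gene on the same strand, for MRPS24 the read-through gene URGCP-MRPS24. Exon bases are shared with another coding gene for 34 of the 76 members, and 33 have a named pseudogene. Reads of such members could have been divided or counted together, because no source used here gives the counting rule.

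The siControl means of the 73 tested members ran from 7.13 to 11.46 (log2), with a median of 9.62. Per kilobase of the longest coding sequence, the highest were MRPS25 (12.24, log2 of the linear value per kilobase), MRPS21 (12.23) and MRPL32 (12.19), and the lowest were MRPS28 (8.18), MRPS18C (8.38) and MRPL12 (8.66). The unit of the deposited values is not given, so they may already be scaled to length, and untranslated bases were not counted in the length. MRPS21 has 8 named pseudogenes in the annotation, so its level may hold reads of these. MRPL12, the large-subunit protein of the stalk that contacts translation factors, and MRPS28 each share exon bases with a coding gene model that has no gene symbol, on the same strand. Summed on the linear scale the members took 0.275% and 0.281% of the library in siControl, 0.254% and 0.253% in siLATS, 0.302% and 0.303% in sip53, and 0.307% and 0.291% in siLATS_p53.

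Within a library the median member was at 9.64 and 9.62 in siControl, at 9.42 and 9.49 in siLATS, at 9.74 and 9.65 in sip53, and at 9.76 and 9.66 in siLATS_p53. The siLATS libraries were the lowest of the 8 and did not overlap the others. Of the 73 members 61 had their lowest group mean in siLATS, while 39 had their highest in siLATS_p53 and 27 in sip53. The range between the highest and lowest group mean of a member had a median of 0.38 (log2) and ran from 0.10 to 0.79, so no member differed by as much as 1 log2 unit between groups.

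**Figure D1:**
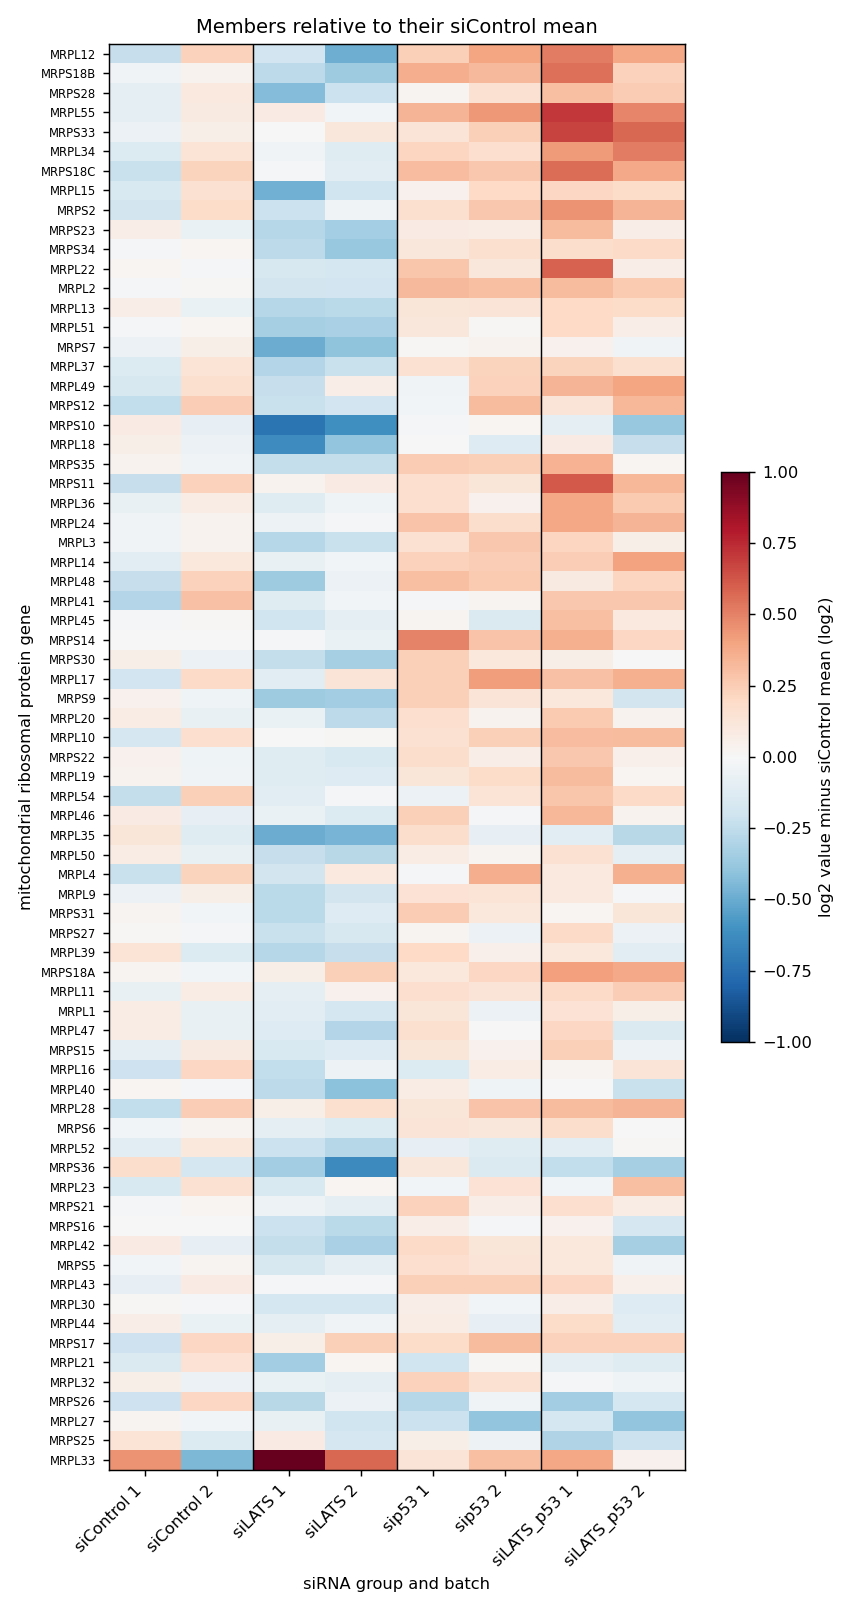
Deposited log2 value of each of the 73 tested members (rows) in each of the 8 libraries (columns, siRNA group and batch), as the difference from the member's siControl mean, on a colour scale from -1 to 1. Rows are ordered by the siLATS_p53 minus siLATS difference; blue is most frequent in the siLATS columns, where 61 members had their lowest group mean, and MRPL33 in the bottom row has the largest siLATS value above siControl (0.79) among the 9 members that were above 0.

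The question of the LATS siRNA alone was read from siLATS against siControl. Most members were lower with the LATS siRNA, by a small amount: 64 of 73 had a difference below 0, with a median of -0.15 (log2) beside -0.07 over all 12315 entries tested. Of the 73 members 2 fell, both in the small subunit, and 0 rose (limma over all entries, adjusted p under 0.05). That is 2.74% of members lower, beside 4.89% of all entries lower and 2.81% higher, so the share of members called was not above the background.

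MRPS10 is a protein of the small-subunit head. It was at 9.86 and 9.69 in siControl, at 9.04 and 9.16 in siLATS, at 9.76 and 9.79 in sip53, and at 9.68 and 9.39 in siLATS_p53. The siLATS libraries lay below all of the others. MRPS10 fell by 0.67 ± 0.13 on the log2 scale in siLATS (SE, n = 2 and 2, limma adjusted p = 0.0255).

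MRPS7, which binds the small-subunit RNA and is needed for assembly of the head, was at 10.20 and 10.31 in siControl, at 9.76 and 9.85 in siLATS, at 10.26 and 10.29 in sip53, and at 10.30 and 10.22 in siLATS_p53. Again the siLATS libraries alone were low. MRPS7 fell by 0.45 ± 0.09 (log2, SE, n = 2 and 2, limma adjusted p = 0.0309). MRPS7 shares exon bases with GGA3 and MIF4GD on the opposite strand, and the library kit does not keep strand.

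Both siLATS libraries were below both siControl libraries for 41 of the 73 members and above them for 2, MRPL33 and MRPS18A, beside 34.8% of all entries below and 17.1% above. MRPL33, a small large-subunit protein, was at 9.57 and 8.67 in siControl, at 10.12 and 9.69 in siLATS, at 9.25 and 9.42 in sip53, and at 9.51 and 9.16 in siLATS_p53. Its siControl libraries were far apart, and the siLATS libraries were the highest of the 8. The difference of 0.79 ± 0.29 (log2, SE) did not pass in the fit by group (limma adjusted p = 0.144), but passed with the batch as a block (adjusted p = 0.0032). MRPL33 shares exon bases on the same strand with BABAM2, so the gene that gave the reads cannot be told apart.

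With the batch of cells as a block, 1 member rose, MRPL33, and 18 fell (24.7%), beside 10.5% of all entries higher and 21.4% lower. MRPL35, MRPL18 and MRPS36 joined MRPS10 and MRPS7 as the members with the largest falls. Within batch 1 the median member difference was -0.14 and within batch 2 -0.19, and 54 and 68 of 73 members were below 0. Fits to fewer libraries have less data for the spread, and the share of all entries called in them is not given here. The count of 2 was 0 when any siControl, siLATS or sip53 library was left out, and 0 when only the groups compared were fitted.

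The median of all entries was also below 0 in siLATS, and a shift of scale and a change in many transcripts cannot be told apart here. Rescaling each library by the median of ratios (shifts of -0.10 to 0.09 log2 over 11356 entries above the floor in all libraries) moved the median of all entries to 0.01 and the median member difference to -0.06, with 26 of 73 members now above 0. MRPS10 still fell (-0.59, adjusted p = 0.0317), and MRPS7 did not pass (-0.37, adjusted p = 0.0525). With the rescaling 2.83% of all entries were called lower, and over all entries 437 were higher and 348 lower where the deposited scale gave 346 and 602. With rescaling and block together 8 members fell and 1 rose, beside 13.5% of all entries lower.

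The p53 siRNA alone was read from sip53 against siControl. No member passed, and 7 of 73 had an unadjusted p under 0.05 in limma, beside 21.4% of all entries. The differences were small and mostly above 0: 63 of 73 members, with a median of 0.14 (log2) beside 0.06 over all entries. Among all entries 1.76% were called higher and 2.1% lower.

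With the batch block 5 members rose and 1 fell, MRPL27 (-0.30 ± 0.12 in the fit by group), beside 16% of all entries higher and 10% lower. The 5 that rose were MRPS14, MRPL2, MRPL55, MRPS18B and MRPL17, with log2 differences of 0.31 to 0.39. Both sip53 libraries were above both siControl libraries for 33 members and below them for 1, beside 31.4% of all entries above and 18% below. After rescaling the median member difference was 0.08 beside 0.00 over all entries, and 51 of 73 members were above 0. Among all entries 117 were then called higher and 332 lower, against 217 and 258 on the deposited scale. With rescaling and the block together 2 members rose and 1 fell (2.74% and 1.37%), beside 11% of all entries higher and 13.7% lower.

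The siRNAs together were read from siLATS_p53 against siControl. Of the 73 members 4 rose (5.48%) and 0 fell, beside 9.07% of all entries higher and 5.48% lower, so the share of members called was below the background. The median member difference was 0.16 (log2) beside 0.08 over all entries, and 57 of 73 were above 0. Of the 4, MRPS33 is in the small subunit and MRPL55, MRPL24 and MRPL34 are in the large subunit.

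MRPS33, a small-subunit protein without a bacterial counterpart, was at 9.32 and 9.44 in siControl, at 9.39 and 9.49 in siLATS, at 9.51 and 9.62 in sip53, and at 10.06 and 9.96 in siLATS_p53. Only the siLATS_p53 libraries were high, and they overlapped no other group. MRPS33 rose by 0.63 ± 0.10 (log2, SE, n = 2 and 2, limma adjusted p = 0.00995), and it has 3 named pseudogenes. Against sip53 the difference was 0.44 ± 0.10 (adjusted p = 0.0661), which passed with the batch block (adjusted p = 0.0039).

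MRPL55, a large-subunit protein, was at 8.55 and 8.73 in siControl, at 8.73 and 8.61 in siLATS, at 8.98 and 9.08 in sip53, and at 9.34 and 9.13 in siLATS_p53. The groups with the p53 siRNA were above those without it, with no overlap. MRPL55 rose by 0.60 ± 0.13 in siLATS_p53 against siControl (log2, SE, limma adjusted p = 0.0230), and its sip53 difference of 0.39 ± 0.13 did not pass (adjusted p = 0.145). MRPL24, a protein near the exit tunnel, rose by 0.36 ± 0.09, and MRPL34 by 0.47 ± 0.12 (adjusted p = 0.0335 and 0.0436).

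With the batch block 20 members rose and 3 fell (27.4% and 4.11%), beside 25.5% of all entries higher and 13.8% lower. The 3 were MRPL27, MRPS25 and MRPS26. With rescaling and the block together 11 rose and 6 fell (15.1% and 8.22%), beside 19.4% of all entries higher and 18.9% lower. On the rescaled values 2 members rose, MRPS33 and MRPL55, beside 6.8% of all entries higher, with a median member difference of 0.09 beside 0.01, and over all entries 837 were higher and 924 lower in place of 1117 and 675. The median member difference was 0.25 within batch 1 and 0.05 within batch 2, where that of all entries was 0.10 and 0.05. The count of 4 was 7 without siControl replicate 2, 2 without either sip53 library, 1 without either siLATS library or siLATS_p53 replicate 2, and 0 without siControl replicate 1 or siLATS_p53 replicate 1. It was 0 with only the groups compared. The share of all entries called in these smaller fits is not given here.

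**Figure D2:**
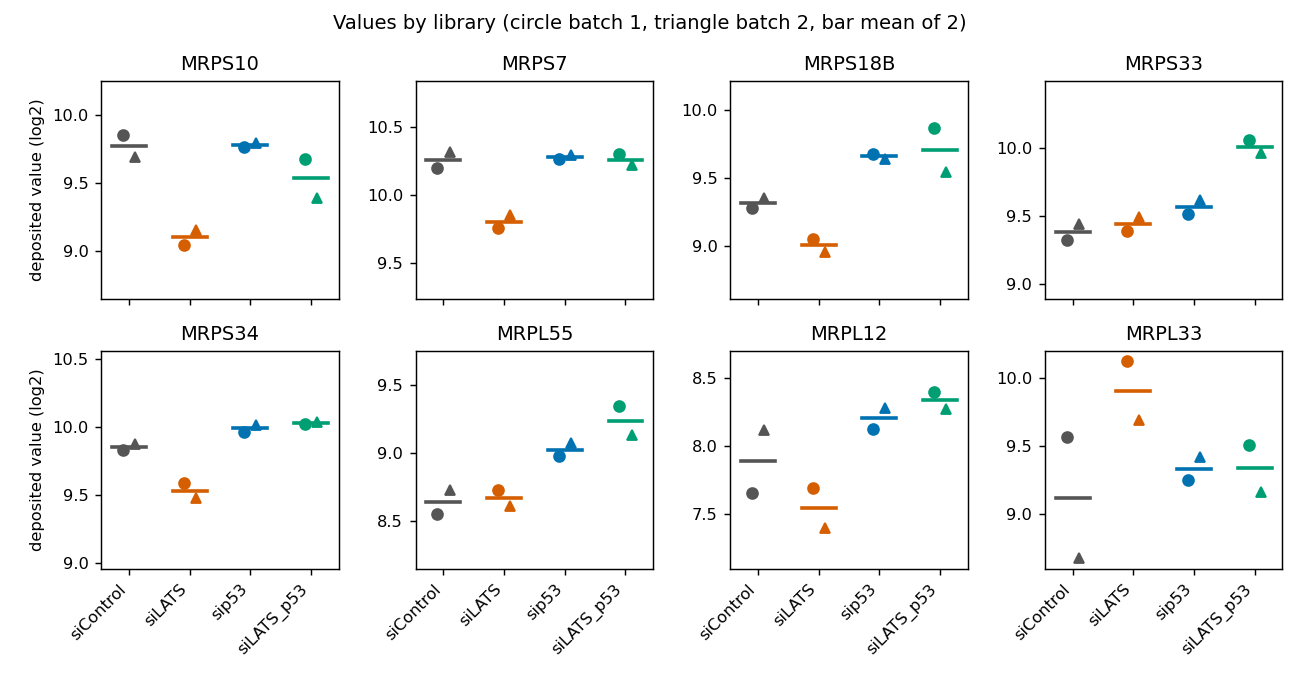
Deposited log2 values of 8 members in each library (circles batch 1, triangles batch 2, bars the mean of 2), by siRNA group, on axes that all span 1.6 log2 units. MRPS10, MRPS7, MRPS18B and MRPS34 are lowest in siLATS, MRPS33 is high only in siLATS_p53, and MRPL33 is highest in siLATS with siControl libraries at 9.57 and 8.67.

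The widest difference among the members was that between the groups with the LATS siRNA, with and without the p53 siRNA (siLATS_p53 against siLATS). Of the 73 members 17 rose (23.3%) and 0 fell, beside 11.3% of all entries higher and 3.22% lower. The 17 were 7 of 25 small-subunit and 10 of 47 large-subunit members. The median member difference was 0.30 (log2) beside 0.15 over all entries, and 69 of 73 members were above 0. This comparison shares the siLATS libraries with that of siLATS against siControl, so the low siLATS values enter both.

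MRPS18B is one of 3 human relatives of the bacterial S18 protein. It was at 9.28 and 9.35 in siControl, at 9.05 and 8.96 in siLATS, at 9.68 and 9.64 in sip53, and at 9.86 and 9.54 in siLATS_p53. The siLATS libraries were the lowest, siControl lay between, and the groups with the p53 siRNA were the highest and overlapped each other. MRPS18B rose by 0.70 ± 0.13 in siLATS_p53 against siLATS (log2, SE, n = 2 and 2, limma adjusted p = 0.0152).

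The other relatives of S18 are MRPS18C, which takes the S18 place in the small subunit, and MRPS18A, which sits in the large subunit. MRPS18C, at 6.90 and 7.35 in siControl, 7.10 and 7.02 in siLATS, 7.43 and 7.40 in sip53, and 7.69 and 7.51 in siLATS_p53, differed by 0.53 ± 0.18 between siLATS_p53 and siLATS (adjusted p = 0.0881). MRPS18A, at 8.77 and 8.71, 8.80 and 8.98, 8.85 and 8.95, and 9.15 and 9.12 in the same order, differed by 0.25 ± 0.11 (adjusted p = 0.174). For all 3 relatives both siLATS_p53 libraries were above both siLATS libraries, and with the batch block MRPS18B and MRPS18C passed (adjusted p = 0.000193 and 0.0183) and MRPS18A did not (adjusted p = 0.0773).

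MRPS34, a mitochondria-specific protein that steadies the small-subunit RNA, was at 9.83 and 9.87 in siControl, at 9.58 and 9.47 in siLATS, at 9.96 and 10.01 in sip53, and at 10.02 and 10.04 in siLATS_p53. It rose by 0.50 ± 0.09 against siLATS (log2, SE, limma adjusted p = 0.0145), the smallest p among the members in this comparison. MRPL12 was at 7.65 and 8.12 in siControl, at 7.69 and 7.40 in siLATS, at 8.12 and 8.28 in sip53, and at 8.39 and 8.27 in siLATS_p53. Its siControl libraries were apart, and the lower one overlapped the siLATS libraries. MRPL12 had the largest difference among the 17, 0.79 ± 0.19 (adjusted p = 0.0348).

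The small-subunit members that rose besides MRPS34, MRPS18B, MRPS33 (0.57 ± 0.10) and MRPS7 (0.46 ± 0.09) were MRPS23, MRPS28 and MRPS2, with log2 differences of 0.50 to 0.60. MRPS33 thus rose against siLATS and siControl, whereas MRPS7 differed from siControl by 0.00 ± 0.09 in siLATS_p53 (adjusted p = 0.990). In the large subunit MRPL13, at 10.39 and 10.26 in siControl, 10.04 and 10.06 in siLATS, 10.45 and 10.45 in sip53, and 10.52 and 10.51 in siLATS_p53, rose by 0.47 ± 0.08. The siLATS libraries of MRPL13 were again the low ones.

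The other large-subunit members that rose were MRPL2 and MRPL3, which lie against the catalytic RNA, the tunnel protein MRPL24, and MRPL15, MRPL34, MRPL37, MRPL51 and MRPL55, with log2 differences of 0.39 to 0.57. Of the 17 members 9 share exon bases with another coding gene, among them MRPL13 with MTBP, MRPL51 with NCAPD2 and MRPL34 with ABHD8, all on the opposite strand. The median difference was 0.29 over the 31 tested members that share exon bases and 0.31 over the 42 that do not.

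Both siLATS_p53 libraries were above both siLATS libraries for 63 of the 73 members and below them for 2, MRPL33 and MRPS25, beside 46.1% of all entries above and 15.2% below. MRPS25, the member with the highest level per kilobase, was at 11.42 and 11.14 in siControl, at 11.37 and 11.11 in siLATS, at 11.34 and 11.23 in sip53, and at 10.98 and 11.07 in siLATS_p53. Its siLATS_p53 libraries were the lowest of the 8, by little, and the difference from siLATS of -0.22 ± 0.13 did not pass (adjusted p = 0.272).

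With the batch block 45 members rose (61.6%) and 1 fell, MRPL33 (adjusted p = 0.0154), beside 33.8% of all entries higher and 9.72% lower. Within batch 1 the median member difference was 0.38 beside 0.17 over all entries, and within batch 2 0.23 beside 0.13, with 69 and 65 of 73 members above 0. On the rescaled values, where the median of all entries moved to -0.00, the median member difference was 0.14 and 63 of 73 members were above 0, but only MRPS33 (0.41, adjusted p = 0.0458) and MRPS18B (0.54, adjusted p = 0.0310) rose. That is 2.74% of members beside 4.44% of all entries, and over all entries 547 were higher and 653 lower in place of 1395 and 396.

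With rescaling and the block together 21 members rose (28.8%) and 3 fell (4.11%), MRPL33, MRPS25 and MRPL27, beside 16.2% of all entries higher and 17.9% lower. The count of 17 also moved with the libraries that were fitted. It was 0 without either siLATS library or siLATS_p53 replicate 1, 12 without siLATS_p53 replicate 2, 5 without either sip53 library and 18 without either siControl library. With only the groups compared it was 0. Such fits have fewer libraries for the spread, and the share of all entries called in them is not given here. Their counts are therefore not read as a trait of the members.

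**Figure D3:**
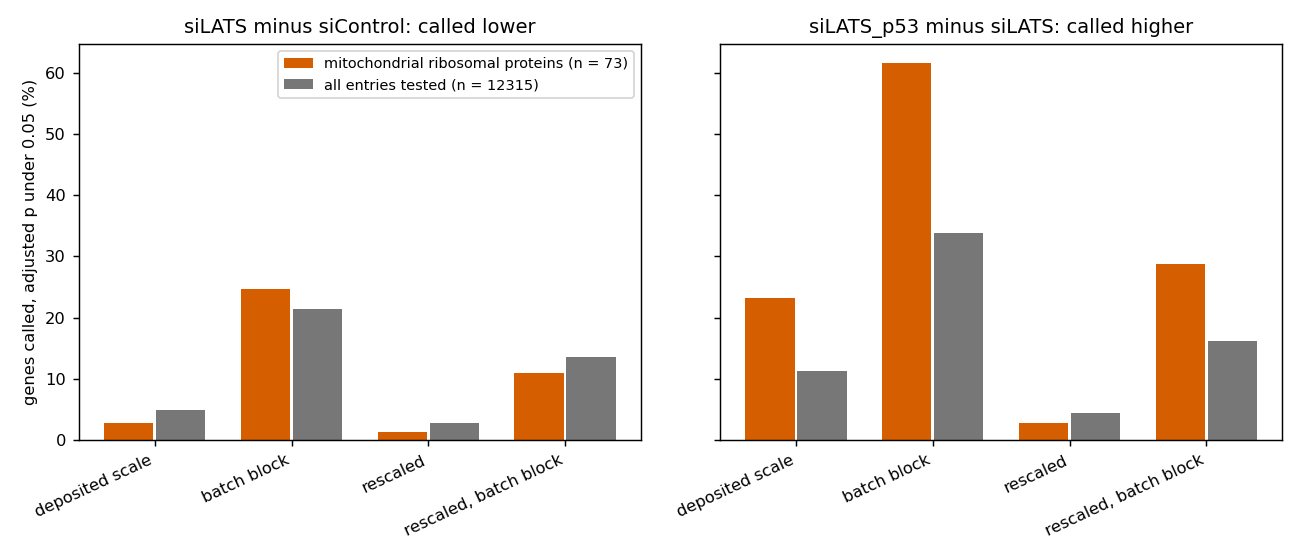
Share of members (n = 73) and of all entries tested (n = 12315) called at adjusted p under 0.05, as bars from 0, for siLATS minus siControl called lower and siLATS_p53 minus siLATS called higher, under 4 settings. For siLATS_p53 minus siLATS the member share is 23.3% beside 11.3% on the deposited scale, 61.6% beside 33.8% with the batch block, 2.74% beside 4.44% after rescaling, and 28.8% beside 16.2% with both.

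Adding the LATS siRNA to the p53 siRNA (siLATS_p53 against sip53) gave the smallest median among the members. No member passed in limma, 2 of 73 had an unadjusted p under 0.05 (MRPS33 and MRPL32) beside 18% of all entries, and the median difference was 0.04 (log2) beside 0.01 over all entries, of which 2.54% were called higher and 1.12% lower. With the batch block 2 members rose, MRPS33 and MRPL49, and 2 fell, MRPL32 and MRPS25, beside 12.7% of all entries higher and 9.42% lower. The median turned to -0.05 when siLATS_p53 replicate 1 was left out.

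Whether the p53 siRNA acted differently with and without the LATS siRNA was tested as an interaction, the siLATS_p53 minus siLATS difference less the sip53 minus siControl difference. No member passed in limma, and 10 of 73 had an unadjusted p under 0.05 beside 6.55% of all entries, led by MRPS7 (0.43 ± 0.13, adjusted p = 0.740). The median over members was 0.18 (log2) beside 0.10 over all entries, and 0.08 beside 0.00 after rescaling. It was not particular to the members. The median was 0.28 over 76 cytosolic ribosomal proteins and 0.25 over 76 nuclear-encoded respiratory chain subunits, and 0.18 and 0.15 after rescaling. Among all entries 0% were called, and 2.03% with the batch block, where no member passed either. A rise in one comparison and not in the other is therefore not shown to differ between them.

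The batch of cells also moved with the members, and this was looked at after the data were seen. In the fit with the block 9 members were higher in batch 2 and 4 were lower, beside 12.5% of all entries higher and 17.8% lower. MRPL4, a protein at the exit tunnel, was at 10.10, 10.14, 10.31 and 10.43 in batch 1 and at 10.55, 10.42, 10.69 and 10.68 in batch 2 (siControl, siLATS, sip53, siLATS_p53). It was higher in batch 2 in each group, by 0.34 ± 0.06 (log2, SE, adjusted p = 0.00065). The largest fall was that of MRPL33 (-0.37 ± 0.12, adjusted p = 0.0303), which did not hold in sip53. The fibroblast marker DCN was also lower in batch 2 in all 4 groups (5 to 7.02 against 7.87 to 9.86). COL1A1, the only other fibroblast marker above the floor, was higher in batch 2 in siControl and lower in the other groups. The rest of that list was at the floor in every library, so DCN does not stand for the list. Whether fibroblast content differed between batches, and the part of DCN in the members' batch differences, were not tested.

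The subunits, and the members that the standard naming places or does not place with a bacterial protein, had similar medians. For siLATS_p53 against siLATS the median was 0.32 over 25 small-subunit and 0.29 over 47 large-subunit members. It was 0.31 over 45 members placed with a bacterial protein and 0.29 over 27 not so placed, which include MRPS18A and MRPS18B. For siLATS against siControl the medians were -0.17 and -0.15, and -0.14 and -0.20. The differences between these classes were not tested.

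Members with and without the printed promoter motifs had medians close to each other in siLATS_p53 against siLATS. The median was 0.27 over the 27 tested members with the ETS motif and 0.32 over the 37 without it, and 0.29 over the 11 with the YY1 motif and 0.30 over the 53 without. For siLATS against siControl the YY1 medians were -0.25 and -0.14. These are descriptions of small groups, with no test, and all of the values come from the same libraries.

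Other genes of mitochondrial translation were read from fixed lists. In siLATS_p53 against siLATS 11.3% of all entries were called higher and 3.22% lower, and in siLATS against siControl 2.81% and 4.89%. For the assembly factors below, the share called higher in siLATS_p53 against siLATS was 13%, near that of all entries. Of 7 mitochondrial ribosomal proteins under other symbols 2 rose in siLATS_p53 against siLATS, MRP63 (0.48 ± 0.10, limma adjusted p = 0.0239) and CHCHD1 (0.46 ± 0.11, adjusted p = 0.0295), and 0 fell. Of 23 assembly factors 3 rose and 0 fell: ERAL1 (0.50 ± 0.10), a chaperone of the small-subunit RNA, TRMT61B (0.48 ± 0.13), which methylates mitochondrial RNA, and TFB1M (0.48 ± 0.13), the methyltransferase of the small-subunit RNA. TFB1M had fallen by 0.60 ± 0.13 in siLATS against siControl (adjusted p = 0.0383). After rescaling none of these 6 calls passed (adjusted p = 0.0549 to 0.144).

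Of 16 translation factors TSFM, the exchange factor of the mitochondrial elongation factor Tu, rose in siLATS_p53 against siLATS (0.47 ± 0.11), and MTIF2, the initiation factor that brings the first tRNA, fell by 0.42 ± 0.10 in siLATS against siControl. Of 9 regulators of mitochondrial biogenesis NRF1, whose protein binds the GCATGCGC motif, rose in siLATS_p53 against siLATS (0.51 ± 0.12, limma adjusted p = 0.0363). After rescaling TSFM, MTIF2 and NRF1 did not pass (adjusted p = 0.101, 0.0692 and 0.125). On the deposited scale TSFM was 6.25% of its list and NRF1 11.1% of its list, beside 11.3% of all entries higher. MTIF2 was 6.25% of its list, beside 4.89% of all entries lower. GABPB2, a subunit gene of GABP, was near the floor, at 5.70 and 5.44 in siControl, 6.16 and 5.90 in siLATS, 6.69 and 6.04 in sip53, and 6.78 and 6.50 in siLATS_p53. It rose by 1.07 ± 0.25 in siLATS_p53 against siControl (log2, SE, limma adjusted p = 0.0314), and by 0.99 after rescaling (adjusted p = 0.0370). Of 9 mitochondrial transcription genes 0 passed in siLATS_p53 against siLATS. In siLATS_p53 against siControl 1 of the 9 fell (11.1%), TFB2M, beside 5.48% of all entries lower. TFB2M fell by 0.37 ± 0.09 (log2, SE, limma adjusted p = 0.0320), and its difference after rescaling was -0.44 (adjusted p = 0.0167).

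The mitochondrial aminoacyl-tRNA synthetases, which charge the tRNAs that these ribosomes use, held a difference larger than that of any member. IARS2, the isoleucine enzyme, was at 14.33 and 14.07 in siControl, at 12.57 and 12.51 in siLATS, at 14.246 and 14.003 in sip53, and at 12.67 and 12.39 in siLATS_p53. The groups with the LATS siRNA were low and did not overlap the others. IARS2 fell by 1.66 ± 0.14 in siLATS and fell by 1.67 ± 0.14 in siLATS_p53 against siControl (log2, SE, limma adjusted p = 0.0020 and 0.00126). Of 20 synthetases 0 rose and 2 fell (10%) in each comparison. Of all entries 2.81% and 9.07% were called higher and 4.89% and 5.48% lower. In siLATS_p53 against siLATS PARS2 (0.87 ± 0.16) and HARS2 (0.45 ± 0.09) rose, 10% of the list beside 11.3% of all entries. After rescaling PARS2 passed (adjusted p = 0.0329) and HARS2 did not (adjusted p = 0.0632). In that fit 1 of the 20 synthetases rose (5%) and 2 fell (10%), beside 4.44% of all entries higher and 5.3% lower.

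For scale the members were set beside the nuclear-encoded respiratory chain subunits, many of which work with proteins that these ribosomes make, and the cytosolic ribosomal proteins. In siLATS_p53 against siLATS 13 of 76 respiratory chain subunits rose (17.1%) and 0 fell, with a median of 0.28. Of 76 cytosolic ribosomal proteins 2 rose (2.63%) and 0 fell, with a median of 0.20. Of all entries 11.3% were called higher and 3.22% lower, and the members' median was 0.30. After rescaling 4 respiratory chain subunits (5.26%) and 0 cytosolic ribosomal proteins rose, beside 4.44% of all entries. RPL22 of the cytosolic list fell (-0.39, limma adjusted p = 0.0402). The medians of the respiratory chain and cytosolic lists were then 0.12 and 0.04 beside 0.14 for the members. In siLATS against siControl 5 respiratory chain subunits fell (6.58%), among them SDHD (-0.52 ± 0.08) and NDUFS1 (-0.44 ± 0.09), and the list had a median of -0.18. RPL39 alone of the cytosolic proteins fell (1.32%), and that list had a median of -0.12. Of all entries 4.89% were called lower. After rescaling 2 respiratory chain subunits, SDHD and NDUFS1, and RPL39 fell, beside 2.83% of all entries lower. In sip53 against siControl 19 of 76 cytosolic ribosomal proteins were above 0, with a median of -0.08, where 63 of 73 members were above 0 with a median of 0.14. No gene of either list passed there in the fit by group on the deposited scale, and RPL22 fell after rescaling (-0.49, adjusted p = 0.0358). With the batch block 8 cytosolic ribosomal proteins fell (10.5%) and 0 rose, beside 10% of all entries lower and 16% higher. Of the members 5 rose (6.85%) and 1 fell (1.37%). With block and rescaling 19 cytosolic ribosomal proteins fell (25%) and 0 rose, beside 13.7% of all entries lower and 11% higher. Of the members 2 then rose (2.74%) and 1 fell (1.37%). The difference between the lists was not tested.

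**Figure D4:**
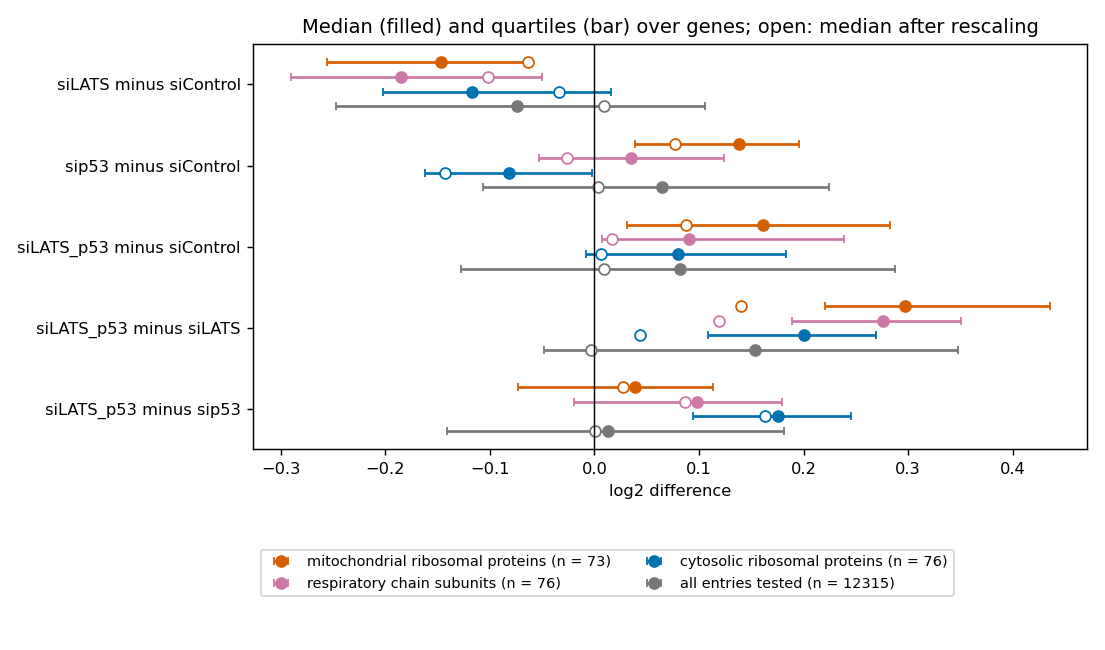
Median log2 difference (filled points) with the quartiles over genes (bars), and the median after rescaling (open points), for 5 comparisons, over the members, the respiratory chain subunits, the cytosolic ribosomal proteins and all entries tested. The members' medians are -0.15, 0.14, 0.16, 0.30 and 0.04 from top to bottom, and after rescaling they lie nearer to 0.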

How the data were processed

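PolyA RNA of MCF10A cells was made into TruSeq v2 libraries, 8 to a lane, per the labels' protocols. The submitters' processing notes name TopHat and hg19; counting and normalization: not given in the sources used here. In the deposited table the authors give log2 values with a floor of 5 (32 on the linear scale). In the labels the replicate number marks the batch of cells, and same-numbered libraries deviated together (correlations of 0.57 to 0.73 over 6 pairs of groups).

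limma 3.58.1 (R 4.3.3) with a mean-variance trend was fitted by group to all 8 libraries over the 12315 entries that exceeded the floor in 2 or more libraries, with Benjamini-Hochberg adjustment over all of them and a threshold of 0.05. An error is the SE of a difference with 4 residual degrees of freedom, 3 with the batch block. On simulated data the limma fit of siLATS against siControl was tested with and without the block, for its estimated differences only. The other steps were not tested in this way. Alternatives were the block, rescaling by medians of ratios, both, other filters and pseudocounts, no trend, only the groups compared, and each library left out.

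The members and lists were chosen with earlier results of these data known. Named were the siRNA targets, up to 10 called members a direction, the MRPS18 genes and the members at the floor. Also named were the members with the 4 largest ranges of group means, and up to 4 called genes of each list. The 3 highest and 3 lowest per kilobase of coding sequence (GENCODE v29 lengths) were named too. MRPL4, DCN, COL1A1, RPL22 and the members that passed only with the block were added after their values were seen. Some genes that the rule names are not reported here. Marker lists were basal epithelial, luminal hormone receptor (2 of 5 above the floor in all libraries), fibroblast, and blood and endothelial. Promoters are RefSeq GRCh38.p14; coordinates are of that build, not of hg19.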

Additional observations from a re-analysis of the deposited data

How the results depend on the processing

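Of the 23 calls of members on the deposited scale (MRPS10 and MRPS7 lower in siLATS, 4 higher in siLATS_p53 against siControl, 17 higher against siLATS), 23 held with the replicate block, with the block and rescaling, with the filter on all 8 libraries and with either pseudocount, 22 with every entry above the floor in at least 1 library, 20 without the trend, 5 after rescaling and 0 with only the groups compared. For siLATS against siControl the count of members called was 1 after rescaling, 19 with the replicate block, 9 with both and 0 with only the groups compared, and 0 to 2 with a library left out; the median was -0.0634 after rescaling with or without the block. For sip53 against siControl the count was 6 with the replicate block and 3 with both, and the median was 0.0770 after rescaling with or without the block and 0.0868 to 0.164 with a library left out. For siLATS_p53 against siControl the count was 2 after rescaling, 23 with the replicate block, 17 with both, 0 with only the groups compared and 0 to 7 with a library left out; the median was 0.0880 after rescaling with or without the block and 0.0648 to 0.204 with a library left out. For siLATS_p53 against siLATS the count was 2 after rescaling, 46 with the replicate block, 0 with only the groups compared and 0 to 18 with a library left out; the median was 0.14 after rescaling with or without the block and 0.26 to 0.38 with a library left out. For siLATS_p53 against sip53 the count was 4 with the replicate block and 6 with both, and the median ran from -0.0521, without siLATS_p53 replicate 1, to 0.0737. The MRPS18C difference between siLATS and siControl, which did not pass, turned from -0.0636 to 0.0194 after rescaling, with or without the block, and ranged from -0.290 to 0.162 with a library left out, the latter without siControl replicate 2. Where no value shows it, the cause was not tested. With a library left out, its group keeps 1 library, whose spread is taken from the other groups. These fits, and those of only the groups compared, have less data for the spread. The share of all entries called in them is not given here, so their counts are not read as a trait of the members. Only-the-groups fits do not apply to the interaction. With 2 libraries a group and unknown depth, differences under about the spread between batches cannot be resolved in the fit by group, which does not take out the batch. In any of the fits a missed threshold does not show that levels were equal.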
